A study of Mus musculus with 4 samples.

Results

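Imprinted genes are expressed from only one parental copy, and many of them set the growth of the fetus. Here 10 such genes were followed in fetal mouse lung. By knowledge from outside these data, H19, Meg3, Cdkn1c and Grb10 are expressed from the maternal copy in most fetal tissues, and Dlk1, Peg3, Mest, Plagl1, Ndn and Nnat from the paternal copy. All probe sets annotated to these symbols on the arrays were taken. For 9 of the 10 genes the annotation holds at least 1 probe set of their own, 35 in all, among 18193 such genes in the series. The single probe set of H19 is listed under both H19 and Mir675, so it is given as a reading of that pair and stays out of all counts.

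The study hybridised RNA from fetal lung at E18.5 to Affymetrix 3' expression arrays. There were 2 genotypes on each of 2 array designs, MOE430A and MOE430B, and so 4 arrays with 1 array per genotype and design. The wild-type embryos are labelled BALB/c, and the double knockout embryos BALB/c Myf5:Myod null. The latter are labelled as lacking Myf5 and Myod1, the myogenic factors without which skeletal muscle does not form, and the series asks, by its title, what skeletal muscle does for the developing lung. Whether a sample was 1 fetus or pooled fetuses, and whether both arrays of a genotype used the same RNA, is not stated in the labels. With no replicate there is no test and no p-value, and all values below describe these 4 arrays.

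As background, genomic imprints are set in the germ line as DNA methylation at control regions and are kept through every cell division afterwards. Imprinted genes sit in clusters in which one control region governs several genes, often a protein-coding gene of the paternal copy and a long noncoding RNA of the maternal copy, as with Igf2 and H19 or Dlk1 and Meg3. Broadly, paternally expressed members tend to favour fetal growth and maternally expressed members to restrain it, and many are abundant in fetal lung and become silent after birth.

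The windows before the transcription start that RefSeq gives for these genes (build GRCm38.p6) show the kind of promoters involved. Of the 10 members, 8 matched (Meg3, Grb10, Dlk1, Peg3, Mest, Plagl1, Ndn and Nnat), with 12 windows. Meg3 is shown because most of its probe sets read higher in the double knockout, Peg3 because every passing probe set read lower, and Ndn and Nnat because they share letters. Capitals mark matches, on either strand, to TGACGTCA (the cAMP response element, which reads the same on both strands), GCATGCGC (letters of the NRF1 motif) and TATAAA (the TATA box). Each stretch ends where the annotated gene begins.
Meg3, chr12:109540746-109540995, plus strand: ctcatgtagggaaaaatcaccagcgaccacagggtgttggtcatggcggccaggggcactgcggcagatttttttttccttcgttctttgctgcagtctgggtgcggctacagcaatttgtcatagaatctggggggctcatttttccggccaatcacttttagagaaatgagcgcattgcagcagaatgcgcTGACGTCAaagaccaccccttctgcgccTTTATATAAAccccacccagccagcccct
Peg3, chr7:6730463-6730669, minus strand: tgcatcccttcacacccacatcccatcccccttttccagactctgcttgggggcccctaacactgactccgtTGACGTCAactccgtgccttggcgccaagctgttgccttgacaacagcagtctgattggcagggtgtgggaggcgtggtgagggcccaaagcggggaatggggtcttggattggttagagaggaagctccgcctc
Ndn, chr7:62348027-62348276, plus strand: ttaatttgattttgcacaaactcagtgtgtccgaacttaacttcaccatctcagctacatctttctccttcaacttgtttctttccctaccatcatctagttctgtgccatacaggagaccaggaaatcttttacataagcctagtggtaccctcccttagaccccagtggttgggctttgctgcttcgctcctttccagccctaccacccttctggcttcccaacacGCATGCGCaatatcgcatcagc
Nnat, chr2:157559828-157560077, plus strand: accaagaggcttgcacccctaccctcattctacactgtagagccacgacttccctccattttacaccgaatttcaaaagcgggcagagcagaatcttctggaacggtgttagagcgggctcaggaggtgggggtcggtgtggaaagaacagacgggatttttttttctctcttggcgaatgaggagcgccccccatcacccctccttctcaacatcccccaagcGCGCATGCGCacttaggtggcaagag
In Meg3 the cAMP response element begins 57 bases before the start and the TATA box letters lie between it and the start, where matches on both strands overlap. In Peg3 the element begins 178 bases before the start that its window uses. Of all 32851 RefSeq windows of 250 bases, 1.55% hold TGACGTCA, 2.26% hold GCATGCGC and 12.4% hold TATAAA. In Nnat the matches of both strands to GCATGCGC overlap. The windows before Grb10, Mest and Plagl1 hold none of these letters. The matches describe sequence and are not measurements of binding.

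The unit throughout is the MAS5 signal, a linear intensity for each probe set. Each array had been scaled to one level on its own, so ratios were taken only between the arrays of 1 design. The signals of different probe sets are not comparable as transcript levels. They were ranked only to choose the brightest probe set of a gene or to place it in a signal class, and were added up only for marker lists, where bright probe sets dominate the sum. To pass, a probe set needed at least 1 signal at or above the median signal of its design (787.4 on MOE430A, 855.1 on MOE430B). Signals under the 25th percentile (283.8 and 278.1) were set to that floor, and a ratio with 1 signal below it is a bound. Log2 ratios are double knockout over wild type after the double knockout array was divided by 1 factor, 1.004 or 1.008. There being no replicates, a yardstick was taken from 100 probe sets present on both designs, none of them a member. Their paired readings put the SD of a single log2 ratio at 0.24. This SD leaves out their mean offset between designs, 0.22 higher on MOE430A, and holds no biological replicate. Their wild-type signals on MOE430B were a median 4.28 times those on MOE430A. Probe sets of 1 gene differed more than this SD, with a pooled SD of 0.37 on MOE430A and 0.71 on MOE430B. The log2 ratios of all passing probe sets had an SD of 0.47 and 0.82.

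The labels were checked on the targeted genes first. The Myf5 probe set read 110.5 and 8.94 (wild type, then double knockout), both under the floor. For Myod1, the MOE430A reading opposed the label, with 85.0 and 1081, and a MOE430B probe set below the filter read 337.2 and 607.2. No source here places these probe sets relative to the deleted parts, so every direction below rests on the array labels, and "double knockout" means the array labelled so. Lung identity was clear, with all 8 epithelial markers passing on MOE430A and the surfactant gene Sftpc at 78525 and 113337. The arrays labelled double knockout also differed in other ways. All 7 measured lymphoid and thymus markers were at least 2-fold lower on MOE430A, with summed signals of 23840 and 2669, although all 7 passed only through wild type. On MOE430B the single measured one, Cd8a, had a log2 ratio of -0.30 by its brightest probe set. Its 3 passing probe sets there ran from -2.70 to -0.30. Xist, transcribed from the inactive X chromosome, read 7600 and 2749 by its brightest probe set. From the Y chromosome, Eif2s3y read 13.1 and 502.3, the brightest Kdm5d probe set 286.5 and 737.4, and a Uty probe set 164.9 and 653.1, all below the filter. The labels give no fetal sex, and its part in the members' values was not tested. The 18S ribosomal RNA controls were a median 3.91-fold and 3.13-fold higher on the 2 designs. In whole-tissue RNA, fewer cells of a type and less RNA per cell cannot be told apart.

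Of the 35 probe sets, 29 passed, 22 on MOE430A and 7 on MOE430B. On MOE430A 11 read higher and 11 lower in the array labelled double knockout, and 17 of the 22 lay within 1.5-fold of wild type, where 13.7% of all passing probe sets lay outside it. On MOE430B 4 of 7 lay within 1.5-fold, where 34.1% lay outside. At 2-fold, 1 of 22 was higher and 0 lower, where 1.8% of all 12203 passing probe sets of the design were higher and 2.05% lower. On MOE430B 2 of 7 were at least 2-fold higher and 0 lower, where 9.7% of 12892 were higher and 8% lower. All 3 of these probe sets, a pair for Meg3 and 1 for Dlk1, passed only through the signal of the array labelled double knockout, so their difference is partly built into the filter. Among the 25 member probe sets with both signals at or above the filter 0 were 2-fold different, where 0.959% of such probe sets were on MOE430A and 3.59% on MOE430B, and 4 were at least 1.5-fold higher, 3 for Meg3 and 1 for Ndn. Of all such probe sets, 3.57% were that much higher on MOE430A and 9.72% on MOE430B.

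**Figure D1:**
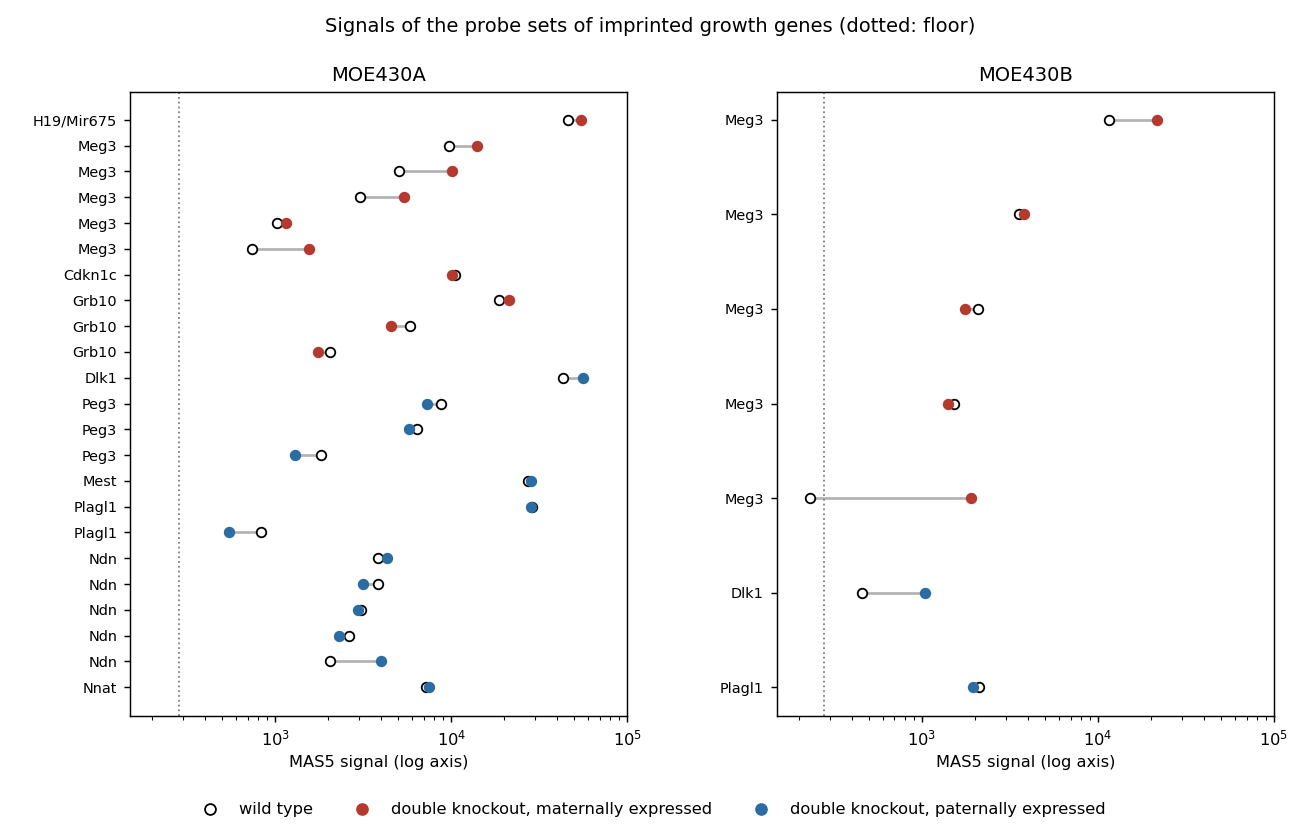
MAS5 signals (log axis) of each passing member probe set on MOE430A (left) and MOE430B (right), 1 row per probe set, with wild type as open circles and double knockout as filled circles, coloured by the parental copy expressed. The dotted line is the floor; wide gaps are seen for several Meg3 rows, 1 Ndn row and Dlk1 on MOE430B, and 21 of the 29 counted rows lie within 1.5-fold.

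Meg3, a long noncoding RNA of the maternal copy that restrains growth in cultured cells, had 3 of the 4 member probe sets that were at least 1.5-fold higher with both signals at the filter. On MOE430A all 5 of its probe sets read higher, under each of the 3 other scalings tried as well. The probe set 1452183_a_at read 5076 in wild type and 10111 in the double knockout, 1.99-fold, a log2 ratio of 0.99. A second probe set on the same target sequence, 1426758_s_at, read 3053 and 5357, 1.75-fold. The brightest, 1439380_x_at, read 9703 and 14001, 1.44-fold. These 3 ratios exceed the SD of 1 ratio, 0.24, and of all passing probe sets of MOE430A 3.91%, 6.23% and 16.8% were at least as far from wild type in either direction. The dimmer 1436713_s_at read 737.9 and 1559, 2.11-fold, and 1436057_at read 1027 and 1150, 1.12-fold, within that SD. The suffixes _s_at and _x_at mark probe sets whose probes may bind other transcripts. Without such a suffix, 1452183_a_at and 1436057_at had log2 ratios of 0.99 and 0.16.

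On MOE430B the Meg3 probe sets did not all point one way. The brightest, 1452905_at, read 11603 and 21727, 1.87-fold, close to the upper probe sets of MOE430A. The probe sets 1429257_at (3548 and 3792), 1428765_at (1517 and 1402) and 1429256_at (2093 and 1759) had ratios of 1.07, 0.92 and 0.84, near wild type on a design where ratios spread widely. The dim 1428764_at read 231.5, below the floor, and 1897, at least 6.82-fold higher, and 1452906_at (240.3 and 611.5) did not reach the filter. The annotation gives 1428764_at, 1428765_at and 1452905_at the same target, so ratios for 1 target ran from 0.92 to at least 6.82. With both signals at the filter, all 4 such Meg3 probe sets on MOE430A read higher, with a median log2 ratio of 0.67. On MOE430B 2 read higher and 2 lower, with a median of -0.009. Some of these probe sets share a target, so they are not independent readings.

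Dlk1, a transmembrane protein with EGF-like repeats that holds precursor cells undifferentiated, lies next to Meg3 and is expressed from the opposite parental copy. Its probe set on MOE430A read 42893 and 55658, 1.30-fold, a log2 ratio of 0.38. That value has to be read against its signal class. The 167 probe sets of MOE430A with a mean log2 signal of 15 or more had a median log2 ratio of 0.25, and 91.0% of them read higher. With this trend removed by a loess curve, Dlk1 had 0.16. On MOE430B a dim Dlk1 probe set, which passed only through the double knockout, read 460.1 and 1046, 2.27-fold, and 13.8% of the design's passing probe sets were at least as far from wild type.

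Rian and Mirg are further noncoding RNAs of the maternal copy in the Dlk1 and Meg3 domain. Rian read 1241 and 1903 on MOE430A, a log2 ratio of 0.62 (0.33 by its other passing probe set), and 2185 and 2664 on MOE430B, 0.29. Mirg read 4165 and 4673 on MOE430B, 0.17, and its other passing probe set had 0.51. By the brightest probe set per design, the domain gave 7 values from 4 genes. Leaving out the dim Dlk1 value, all 3 on MOE430A and all 3 on MOE430B were above 0, where 51.3% and 46.0% of all genes were, and they were so under each scaling tried. The values of Mirg and of Dlk1 after loess lie within the SD of 1 ratio.

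**Figure D2:**
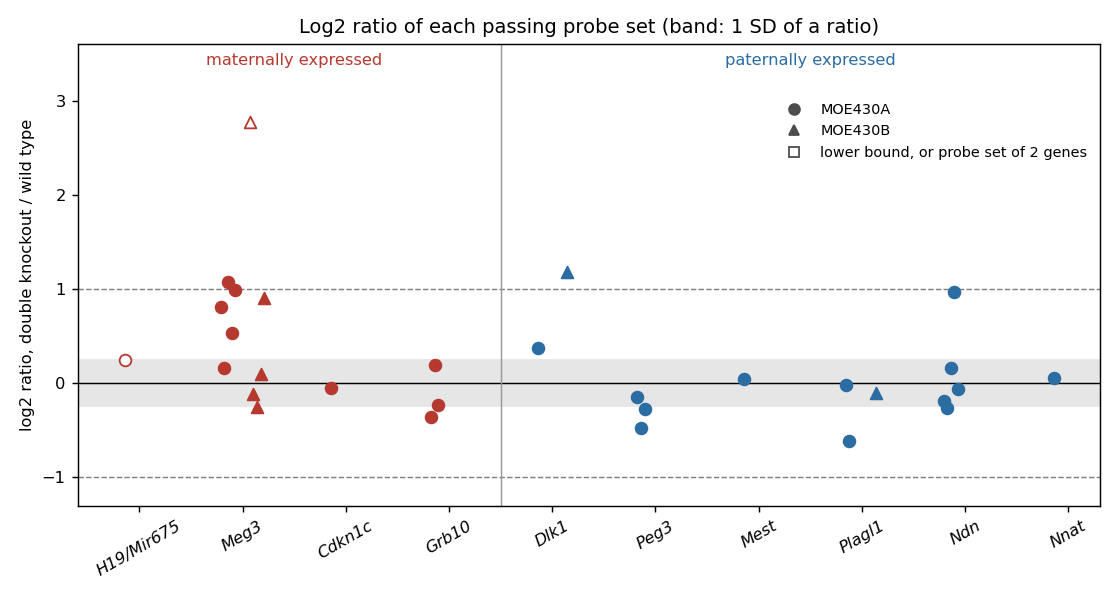
Log2 ratio, double knockout over wild type, of each passing probe set by gene, with circles for MOE430A, triangles for MOE430B and open symbols for a lower bound or for the probe set of H19 and Mir675. The grey band is 1 SD of a ratio (0.24) and dashed lines are 2-fold; Meg3 and Dlk1 hold the 3 symbols above 2-fold, and all symbols of Peg3 and Plagl1 lie below 0.

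H19, the noncoding RNA of the Igf2 cluster and the host of a microRNA, was read only by the probe set that it shares with Mir675. This probe set read 45899 and 54270, a log2 ratio of 0.24. It thus stood no further from 0 than 1 SD and close to the median of 0.25 of its signal class. The array does not measure the mature microRNAs, which lie inside H19 (RefSeq, GRCm38.p6, chromosome 7, minus strand) and are shown with bases 2 to 8, the seed, in capitals.
miR-675-5p, chr7:142577112-142577133: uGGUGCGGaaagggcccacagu
miR-675-3p, chr7:142577078-142577099: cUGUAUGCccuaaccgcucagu
The partner gene Igf2, the fetal growth factor, read 32676 and 35373, a log2 ratio of 0.11 (-0.19 by its other probe set). The value of 0.11 belongs to the same signal class and lies below its median of 0.25. Igf2r, the receptor that clears Igf2, read 6743 and 7154, 0.09, and 0.42 by its other probe set.

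The 2 maternally expressed brakes on growth differed little between the genotypes. Cdkn1c, the p57 inhibitor of cyclin-dependent kinases, read 10535 and 10144 on MOE430A, a log2 ratio of -0.05. Grb10, an adaptor that damps insulin and IGF signalling, was read by 3 probe sets on MOE430A. The brightest read 18588 and 21230 (0.19), and the others 5845 and 4546 (-0.36) and 2049 and 1746 (-0.23). These probe sets thus differ in direction, although the annotation gives the brightest and the second the same target, and the brightest gave 0.09 after loess. Kcnq1ot1, the paternally expressed noncoding RNA of the Cdkn1c cluster, read 2654 and 4011 on MOE430B, a log2 ratio of 0.60, and 0.93 by its other passing probe set.

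Peg3, a zinc finger protein that acts in cell survival and growth, was lower in the array labelled double knockout by all 3 passing probe sets. They read 8731 and 7240 (-0.27), 6362 and 5752 (-0.15), and 1816 and 1305 (-0.48). The annotation gives the probe sets at -0.15 and -0.48 the same target, so these are not independent readings. The value of -0.15 lies within the SD of 1 ratio. None of the 3 probe sets reached 1.5-fold, and 43.9%, 66.9% and 20.4% of all passing probe sets of the design were at least as far from wild type. On MOE430B its 2 probe sets did not reach the filter, with 542.5 and 199.4, and 167.6 and 54.3.

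Mest, a hydrolase-like protein of mesodermal tissue, read 27279 and 28203, a log2 ratio of 0.05 that turned to -0.10 after loess and -0.08 after quantile normalization. Nnat, a membrane proteolipid, read 7195 and 7492, 0.06. Plagl1, a zinc finger transcription factor that acts on other imprinted genes, read 28782 and 28305 by its brighter probe set (-0.02) and 2106 and 1963 on MOE430B (-0.10). Its dim probe set read 831.7 and 544.7 (-0.61) and passed only through wild type. With the signal class median of 0.09 for mean log2 signals of 14 to 15, Mest and the brighter Plagl1 probe set stood near their class.

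Ndn, a MAGE family protein that holds cells out of division, had 8 probe sets on MOE430A, of which 5 passed. Of these, 4 lay between a log2 ratio of -0.27 and 0.16. The fifth, 1437853_x_at, read 2039 and 3995, 1.96-fold, a log2 ratio of 0.97. The suffix _x_at marks probe sets whose probes may bind other transcripts. The probe sets 1415923_at (2632 and 2311) and 1435382_at (3819 and 3171), without that suffix, both read lower. The 3 that failed the filter had signals from 413.7 to 699.4.

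**Figure D3:**
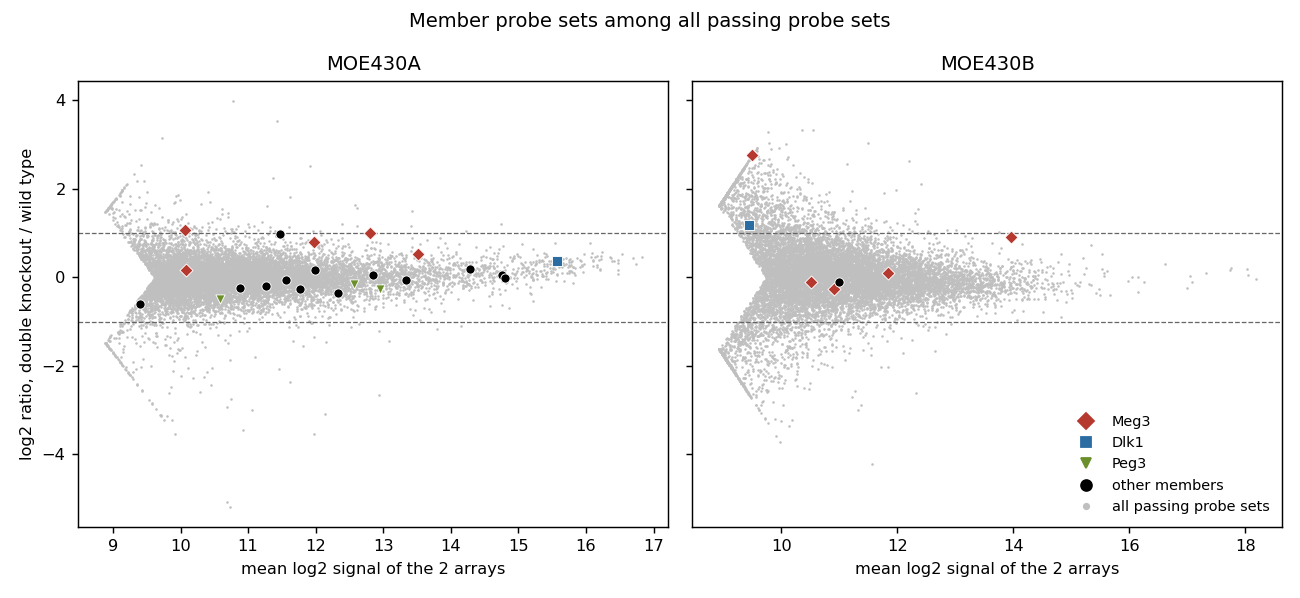
Log2 ratio against the mean log2 signal of both arrays for all passing probe sets (grey) of MOE430A and MOE430B, with Meg3 (diamonds), Dlk1 (squares), Peg3 (triangles) and other members (black circles) marked and dashed lines at 2-fold. The grey cloud is wider on MOE430B and at low signal, and on MOE430A it drifts above 0 at the brightest signals, where Dlk1 lies.

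The maternally and paternally expressed members were compared by 1 value per gene, the brightest passing probe set of each design. On MOE430A the 3 maternally expressed genes with a probe set of their own had a median log2 ratio of 0.19 (Meg3 0.53, Grb10 0.19, Cdkn1c -0.05), and the 6 paternally expressed genes 0.05, from -0.27 for Peg3 to 0.38 for Dlk1. The difference was 0.14. It was 0.46 without the probe sets that may bind other transcripts (suffixes _x_at and _s_at) and -0.05 with the median over each gene's probe sets. The median over all 7658 genes was 0.01. The maternal median itself was -0.05 under the latter choice, and the paternal median -0.27 under the former, so the direction of neither held across these choices. On MOE430B the maternal side was Meg3 alone at 0.91, and the paternal side was Plagl1 at -0.10 and Dlk1 at 1.18, the latter favoured by the filter as given above. The values of maternally and paternally expressed members overlapped on MOE430A, and MOE430B holds too few genes for a comparison.

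Other imprinted genes were taken from a list of 31, of which 16 passed on either design. On MOE430A 8 of 11 measured genes read higher and 3 lower, with a median of 0.11, and 0 were past 2-fold, where 3.54% of all genes were. On MOE430B 7 of 9 read higher, with a median of 0.21 beside -0.04 for all 6728 genes, and 1 was past 2-fold, where 13.3% of all genes were. With both signals at the filter, 7 of 10 read higher on MOE430A and 6 of 8 on MOE430B. The gene past 2-fold was Gnas, which makes the stimulatory G protein subunit from transcripts of either parental copy, with 494.8 and 1550, 3.13-fold, by a dim probe set that passed only through the double knockout. On MOE430A the brightest Gnas probe set read 45729 and 62144, a log2 ratio of 0.44 in the same high signal class as Dlk1. Ube3a, a ubiquitin ligase, had -0.44 on MOE430A and -0.07 on MOE430B. Sgce, a sarcoglycan, had -0.08 on MOE430A. Inpp5f, a phosphatase, had -0.19 on MOE430B (-0.84 by its other passing probe set).

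Relatives of the members that are not imprinted had a median log2 ratio of -0.02 over 7 genes on MOE430A, 3 higher and 4 lower, with 0 past 2-fold. Maged1, a MAGE protein related to Ndn, read 5714 and 5587, and Grb14, a relative of Grb10, read 2476 and 3074. Plag1, a relative of Plagl1, was the single measured relative on MOE430B, at 893.9 and 278.7, with a log2 ratio of -1.68, and it passed only through wild type.

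Genes listed for setting or keeping imprints, here called imprint maintenance genes, mostly read lower. All 7 measured on MOE430A read lower, with a median of -0.29 and 1 past 2-fold, where 1.78% of all genes were at least 2-fold lower. All 3 on MOE430B read lower, with a median of -0.41 and 1 past 2-fold, where 6.26% were. Without _x_at and _s_at probe sets, the kind read for Dnmt1 and Trim28 there, only Zfp445 was left. Its value was then -0.17, within the SD of 1 ratio. On MOE430A the values ran from -1.27 to -0.01, and those nearest 0 lay within the SD of 1 ratio. Dnmt3a had -0.34 on MOE430A, with passing probe sets from -1.21 to 0.29. Uhrf1, which brings the maintenance methyltransferase to newly copied DNA, read 1709 and 706.6, a log2 ratio of -1.27, and -1.46 by its other probe set. The former is the value past 2-fold on MOE430A, and it passed only through wild type. The other 6 genes there, with both signals at the filter, also read lower, and the median over them was -0.23. Dnmt1, that methyltransferase, read 4086 and 3083 on MOE430A (-0.41) and 3846 and 1209 on MOE430B (-1.67). Trim28, the corepressor recruited to imprints by zinc finger proteins, had -0.29 and -0.41, and Zfp445, one of those proteins, -0.05 (0.38 by its other probe set) and -0.16. These directions by the brightest probe set were the same under each scaling tried. Of the proliferation markers, 6 of 7 read lower on MOE430A, with a median of -0.93 and summed signals of 35974 and 22290. The lymphoid markers given above also read lower there. On MOE430B 1 of 2 proliferation markers read lower, Mcm5 at -0.86 with both signals at the filter. The other, Top2a, read 668.9 and 1116 and passed only through the double knockout. The part of proliferation and of lymphoid cells in the values of the imprint maintenance genes was not tested.

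**Figure D4:**
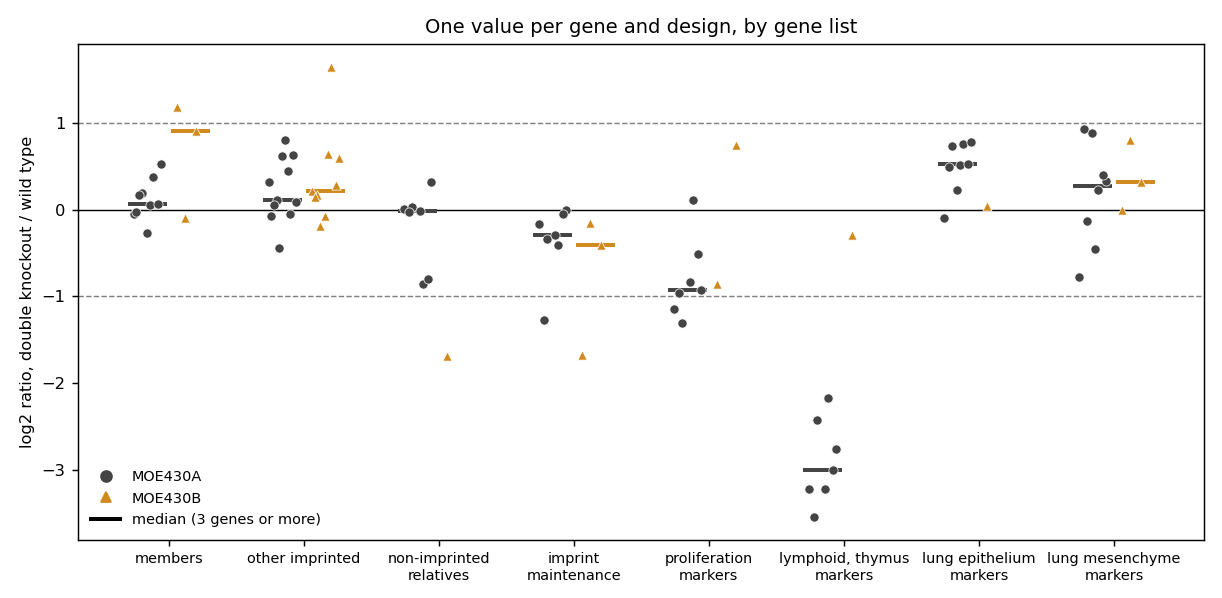
Log2 ratio, double knockout over wild type, with 1 value per gene and design, for the members, other imprinted genes, non-imprinted relatives, imprint maintenance genes and 4 marker lists (circles MOE430A, triangles MOE430B, bars the median of lists with 3 genes or more). Members on MOE430A lie around 0 (median 0.06), imprint maintenance genes below it (-0.29), and lymphoid and thymus markers far below (-2.99).

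Tissues in which the members are known to be abundant were set beside these values. Skeletal muscle markers were sparse, with 4 of 8 passing on MOE430A and 3 of those lower. Ckm, which heart also expresses, read 35417 and 42727. Cardiac markers all passed on MOE430A, 6 of 8 higher, with summed signals of 265645 and 297039. Ckm and the cardiac markers Myl2, Tnnt2 and Actc1 belong, like Sftpc, to the high signal class of MOE430A with a median of 0.25. The log2 ratios were 0.27 for Ckm, 0.47 for Myl2, 0.34 for Tnnt2 and 0.28 for Actc1. Of the other cardiac markers, Myh6, Tnni3 and Mybpc3 had 0.30, 0.07 and 0.004. Myl7 and Nppa read lower, at -0.14 and -0.70. On MOE430B the single measured cardiac marker, Tnnt2, had a log2 ratio of 1.04. Of 4 liver markers on MOE430A, 3 passed only through the double knockout. The fourth, Alb, read 2530 and 3621, and the summed signals were 4251 and 6968, while the liver marker on MOE430B, Ttr, had -0.72. Lung mesenchyme markers were higher in 5 of 8 on MOE430A, with a median of 0.27 and a range from -0.78 to 0.93. On MOE430B 2 of 3 were higher, with a median of 0.31. Lung epithelium markers were higher in 7 of 8 on MOE430A, with a median of 0.52 and summed signals of 146655 and 207460, and 1 of these passed only through the double knockout. Of 6 neuroendocrine and neuronal markers on MOE430A only Uchl1 passed, at 793.7 and 624.0, and only through wild type. The part of these cell types in the readings of Meg3 and Dlk1 was not tested.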

How the data were processed

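The authors deposited 1 intensity per probe set and array on a linear scale; the submitters' processing notes name MAS5, with no version or settings. By the values, every array has a 2% trimmed mean of 1500, so each had been scaled by itself, which assumes equal total signal.

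The 64 control probe sets of each design were not used. Gene names came from GEO's platform annotation, and gene starts, neighbours, promoter windows and microRNA positions from RefSeq tables (GRCm38.p6). Per design, the brightest passing probe set (by mean log2 signal) stood for its gene. Other imprinted genes, relatives and maintenance genes were named when past 2-fold or when among the 2 brightest of a list with fewer than 4 such genes. Igf2, Igf2r and Gnas were named whatever their values, and Rian on MOE430A and Dnmt3a were added. The members and lists were chosen with earlier results of these data known. The number of arrays limits all precision. Steps were tested on simulated data. Alternatives covered scaling, floor, filter, probe sets that may cross-hybridise and the value per gene. Python 3.11.15 was used.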

Additional observations from a re-analysis of the deposited data

How the results depend on the processing

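Across the 8 alternatives that give values per probe set, 211 of 216 member probe set values moved by less than 0.24, the SD of 1 log2 ratio. Of these values 2 changed sign, both of Mest. The floor settings can move only probe sets with a signal under a floor. The filter and suffix settings and the signals as deposited differ mainly by 1 factor per design. The count of 211 is thus largely set by construction and is no measure of robustness. Of 90 medians, 80 moved by less than that SD and 8 changed sign, and of 32 counts, 24 were equal to those reported. The count of member probe sets at least 2-fold higher on MOE430A, 1 as reported, was 0 with the floor at the median, under a 75th percentile filter and without _x_at and _s_at probe sets, and 2 with no filter. On MOE430B it was 2 as reported, 3 after quantile normalization and with no filter, 1 with the floor at the median and 0 under the 75th percentile filter, which leaves fewer probe sets. Taking a gene's median probe set value, the maternal median was -0.055 on MOE430A and 0.10 on MOE430B. The paternal median was -0.27 on MOE430A without _x_at and _s_at probe sets, which removes the probe set of Dlk1 and the brightest ones of Plagl1 and Ndn. On MOE430B, where it rests on at most 3 genes, it was -0.14 after loess, 0.095 with the floor at the median, -0.097 with no filter and -0.057 under the 75th percentile filter; after loess and under that filter the probe set of Dlk1 does not pass. The relatives on MOE430B had -2.72 after loess, -0.064 with the floor at the median and -0.36 with no filter. Where no construction is named, the cause was not tested. Counting the shared probe set for H19, an alternative added after the data were seen, gave a maternal median of 0.22 on MOE430A. No paired analysis was possible because each genotype has 1 array per design. Signals near the floor limit the dim probe sets. All 3 past 2-fold had a wild-type signal under the filter, and that of 1428764_at was below the floor.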
